A study of Mus musculus with 2 samples.

Results

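The T cell receptor gene segments of the mouse genome were examined for accessible chromatin in spleen: 226 of 55413 annotated genes, taken as every gene of the GENCODE types TR_V_gene, TR_D_gene, TR_J_gene and TR_C_gene. They comprised 144 V, 4 D, 70 J and 8 C segments, of which 172 lay in the combined alpha and delta locus (TRA/TRD, chromosome 14), 39 in the beta locus (TRB, chromosome 6) and 15 in the gamma locus (TRG, chromosome 13). DNase-seq, which maps open chromatin by sequencing the ends that the enzyme DNase I leaves in nuclei, had been run on whole spleen tissue. The mice were male, 10 days old and of strain B6CASTF1/J, the first-generation cross of C57BL/6 and CAST. The single group held 2 libraries, biological replicates 1 and 2, numbered separately under a shared donor identifier, so the spread between them may be that of separate animals or of technical repeats. No genotype or treatment was compared. A segment was counted if it held a peak or had one no more than 500 bp from its annotated start. Positions are on mm10.

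T cell receptors are assembled in developing T cells in the thymus, where the RAG recombinase joins V, D and J segments at recombination signal sequences: a heptamer, a spacer and a nonamer beside each segment. The V segment brings the promoter and the J and C segments the rest of the chain, and enhancers near the C genes act on both transcription and recombination. The binding protein CTCF folds such loci and is known from V promoters of the alpha locus. Spleen holds mature T cells beside many B cells, red cell precursors and other cells. In a given T cell the joining of segments of the same orientation removes the DNA between them. In bulk tissue, few accessible cells and low accessibility per cell cannot be told apart.

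The libraries held 130476 and 95847 peaks, with median signals of 0.578 and 0.553 and 90th percentiles of 4.89 and 3.20. Peak signal is a density scaled to depth by an unstated constant, so values compare within a library. Across the 73150 sites found in both, the median log2 ratio (replicate 1 over 2) was 0.84 (SD 0.58). Absolute read depth is unknown. Both libraries had promoter peaks for 10 of 13 T cell markers, 7 of 7 B cell markers and 6 of 6 red cell markers. They had them for 2 of 4 NK cell markers and 0 of 4 liver markers, beside 60.7% of 21938 protein-coding genes. The single libraries gave 13 and 10 for the T cell list and 1 and 0 for the liver list. For the other lists the single-library counts were the same as those in both. The median promoter signals were 1.04 and 0.492 for the T cell list, 4.08 and 1.57 for the B cell list and 5.92 and 3.49 for the red cell list. Their part in the results on the receptor loci was not tested.

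The sequences under the 4 V sites of highest mean signal are shown first, with those of Trav10d and Trav10 as an example of repeated copies, because the later results refer to their position upstream of the segment and to the CTCF consensus. Trav10 was chosen for that example and not by its signal. All sequences are of the C57BL/6J reference (GRCm38), on the plus strand, which is the coding strand of these segments, and the CAST allele was not read. Capitals mark the best match to the 12-letter CTCF consensus with at most 1 mismatch. The sites lay at chr6:41112981-41113160 (Trbv12-1), chr6:41118281-41118460 (Trbv12-2), chr14:53806321-53806500 (Trav17), chr13:19177721-19177900 (Tcrg-V7), chr14:52810681-52810880 (Trav10d) and chr14:53505481-53505660 (Trav10). The best match had 2 mismatches in the Trbv12-2 site and 3 in the Tcrg-V7 site, so these carry no capitals.
Trbv12-1: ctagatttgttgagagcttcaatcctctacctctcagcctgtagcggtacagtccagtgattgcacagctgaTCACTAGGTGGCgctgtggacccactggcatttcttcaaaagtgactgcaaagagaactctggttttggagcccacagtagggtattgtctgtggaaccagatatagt
Trbv12-2: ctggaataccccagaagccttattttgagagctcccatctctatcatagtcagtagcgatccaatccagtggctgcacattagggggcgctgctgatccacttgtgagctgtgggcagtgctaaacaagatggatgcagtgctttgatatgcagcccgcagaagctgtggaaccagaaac
Trav17: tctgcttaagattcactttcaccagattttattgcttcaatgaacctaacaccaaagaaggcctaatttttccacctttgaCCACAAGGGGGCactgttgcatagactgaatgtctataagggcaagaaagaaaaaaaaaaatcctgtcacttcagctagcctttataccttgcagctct
Tcrg-V7: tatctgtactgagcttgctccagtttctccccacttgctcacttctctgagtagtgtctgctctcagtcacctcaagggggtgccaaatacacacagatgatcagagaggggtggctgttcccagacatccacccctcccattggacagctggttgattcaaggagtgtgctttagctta
Trav10d: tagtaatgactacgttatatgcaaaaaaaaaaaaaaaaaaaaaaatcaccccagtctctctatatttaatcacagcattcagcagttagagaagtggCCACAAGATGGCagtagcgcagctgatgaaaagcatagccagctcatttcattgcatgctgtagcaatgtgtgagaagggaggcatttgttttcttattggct
Trav10: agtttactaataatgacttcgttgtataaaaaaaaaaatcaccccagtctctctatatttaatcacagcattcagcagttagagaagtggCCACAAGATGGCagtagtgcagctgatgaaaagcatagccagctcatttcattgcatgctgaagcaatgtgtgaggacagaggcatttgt

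Most receptor segments had no peak in spleen, and those that did were mainly V segments with weak peaks just upstream of their start. A peak was found at 47 of 226 segments (20.8%) in replicate 1 and at 38 (16.8%) in replicate 2, and 34 segments (15%) had one in both. By the same rule 43.4% and 39.3% of all annotated genes had a peak, and 38% had one in both libraries. Receptor segments are short, and of the 18186 other genes of at most 1000 bp, 10% and 7.65% had a peak and 6.59% had one in both. Windows of 1001 bp, the median width of a segment window, tiled along the genome held a peak in 4.42% and 3.39% of cases, and in both libraries in 2.81%. Of the 175 segments with no peak in either library, 173 held no base with a deposited false discovery rate under 0.05 in either. These rates come from the same cuts as the peaks, so they are not independent support for the absent peaks.

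Segment types differed in their counts. Among V segments 39 and 31 of 144 had a peak, 27 (18.8%) in both libraries. Among J segments the same 6 of 70 (8.57%) had one in each library, among D segments 1 of 4, and among C segments 1 of 8 in replicate 1 and 0 in replicate 2. By locus, 23 of 172 TRA/TRD segments (13.4%), 10 of 39 TRB segments (25.6%) and 1 of 15 TRG segments (6.67%) had a peak in both. The immunoglobulin segments, their B cell counterparts, gave 80 of 264 (30.3%) in each library and 55 (20.8%) in both. The immunoglobulin V segments gave 31.7% and 30.7% of 218, with 22.5% in both, and the 14 immunoglobulin J segments gave 35.7% and 57.1%, with 21.4% in both. The T cell receptor V and J pseudogenes gave 13.6% and 9.09% of 44, with 9.09% in both. These shares are set side by side without a test, because neighbouring segments share sequence, sites and samples.

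**Figure D1:**
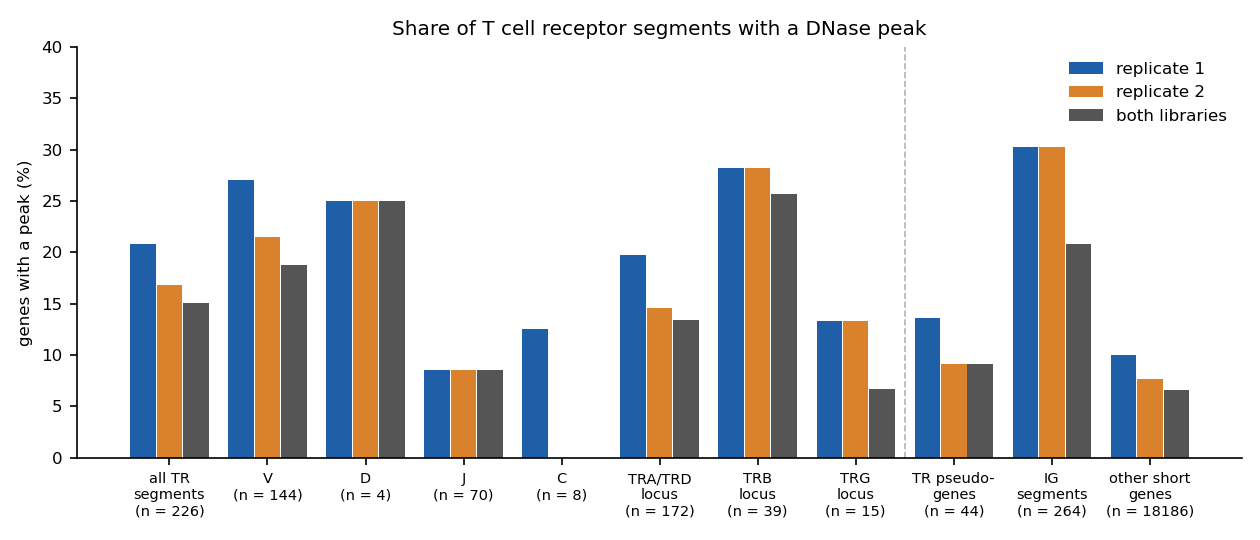
Share of genes with a peak within 500 bp of the start or inside, in percent (vertical axis), for all T cell receptor segments, by segment type and by locus, with 3 comparison sets to the right of the dashed line; bars stand for replicate 1, replicate 2 and both libraries. V segments reached 27.1% and 21.5%, J segments 8.57% in each library, and C segments 12.5% and 0%.

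The peaks were weak for these libraries. Of the segments with a peak, 13 of 47 in replicate 1 and 9 of 38 in replicate 2 lay above the library's median signal, and the median percentile among all peaks was 38.5 and 26.7. Only the pair Trbv12-1 and Trbv12-2 lay above the 90th percentile, and did so in both libraries. Over the 34 segments in both, the log2 ratio of replicate 1 over 2 had a median of 0.59 (SD 0.55). Of these, 24 lay below the genome-wide median of 0.84. Among the 24 are 4 beta J segments that share 1 site and so 1 ratio, 0.59. Each ratio is that of the strongest peak in each library, and for Trav13n-3 and Trav13n-4 this was not the same peak in both.

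**Figure D2:**
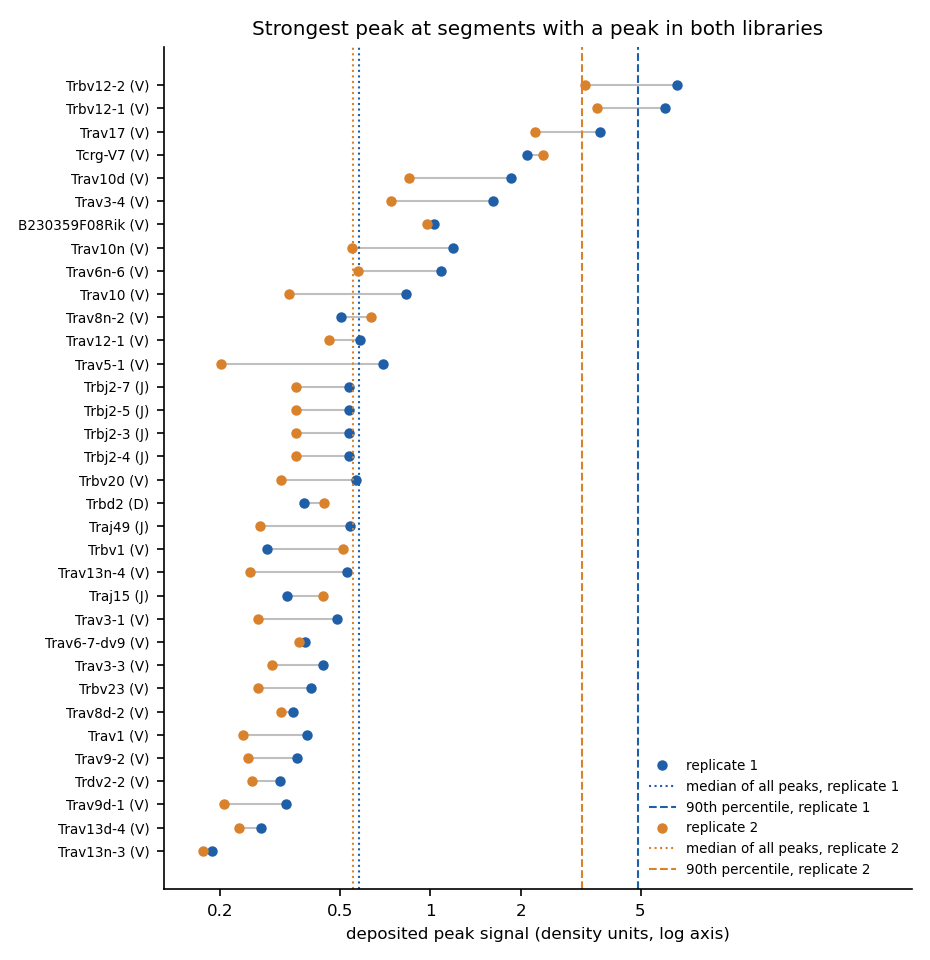
Deposited peak signal (horizontal log axis) of the strongest peak at each of the 34 segments with a peak in both libraries, by replicate, with dotted lines at the median and dashed lines at the 90th percentile of all peaks of each library. Trbv12-2 and Trbv12-1 stand to the right of the dashed lines, and most other segments lie to the left of the dotted ones.

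In the beta locus, Trbv12-2 (chr6:41118851-41119364) had signals of 6.60 in replicate 1 and 3.26 in replicate 2. Trbv12-1 (chr6:41113550-41114067) had 6.04 and 3.59. Both sites lay far upstream, with midpoints 470.5 and 480.5 bp before the start of Trbv12-2 and 479.5 bp before that of Trbv12-1. The centres of the 2 sites, over 140 bases, were 58.6% identical. The windows of Trbv12-2 and Trbv12-1 held 95.4% and 96.0% unique 31-mers, stretches of 31 bases found once in the reference. Both V segments also had a weaker peak nearer the start: Trbv12-1 had 0.338 and 0.348, and Trbv12-2 had 0.398 in replicate 2 alone.

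The remaining TRB V segments were lower. Trbv20 had 0.566 and 0.318, Trbv1 had 0.285 and 0.511, and Trbv23 had 0.401 and 0.268. Trbv1 was one of the 5 of 34 segments with a higher value in replicate 2. Trbv31, which lies beyond the C genes in the opposite orientation, had 0.600 in replicate 1 and no peak in replicate 2. Trbv2 had 0.268 in replicate 2 alone. The other 15 of 22 TRB V segments had no peak in either library.

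In the alpha locus Trav17 (chr14:53806639-53807115) stood highest, at 3.68 and 2.23, with its site 139 bp upstream of the start in each library. All 31-mers of its window were unique. Trav10d followed at 1.85 and 0.846, Trav3-4 at 1.62 and 0.741, and B230359F08Rik, a V segment without a Trav name, at 1.03 and 0.976. Trav10n had 1.19 and 0.549, Trav6n-6 had 1.08 and 0.574, and Trav10 had 0.833 and 0.339. All 3 members of the Trav10 family had a peak in both libraries, but their sites held 38% to 41.8% unique 31-mers, and the part of reads shared between these copies was not tested. Of the other 14 alpha or delta V segments with a peak in both, Trav5-1 was highest in replicate 1 (0.694, against 0.201 in replicate 2) and Trav8n-2 in replicate 2 (0.632, against 0.503 in replicate 1). Trav12-1 had 0.585 and 0.461. The lowest of the 34 segments was Trav13n-3, at 0.188 and 0.176, which come from different peaks. The replicate 1 value was that of a peak inside the segment found in replicate 1 alone. At its site found in both libraries Trav13n-3 had 0.158 and 0.176. Trav6-7-dv9, a segment shared by alpha and delta chains, had 0.383 and 0.364, and the delta segment Trdv2-2 had 0.315 and 0.255.

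Alpha families differed in how many members had a peak in both libraries. Among those with 3 or more members, Trav10 had 3 of 3, Trav3 had 3 of 5, Trav8 had 2 of 4, Trav13 had 3 of 11, Trav5 had 1 of 4, Trav9 had 2 of 10, Trav6 had 2 of 15 and Trav12 had 1 of 9. Trav7 (13 members), Trav14 (9), Trav4 (7), Trav15 (6) and Trav16 (3) had 0. Mouse chromosome 14 carries the alpha V region in near-identical repeats, named d and n beside the unlettered copy. A peak in both libraries was found at 4 of 34 d copies (11.8%), 5 of 28 n copies (17.9%) and 10 of 46 unlettered segments (21.7%). These sets are not matched copies: the unlettered one includes segments with fully unique windows, such as Trav2 and Trav5-1. The median unique share of the windows was 1.81% for d, 2.11% for n and 46.8% for unlettered segments. The part of uniqueness in these shares and in the family counts was not tested.

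In the gamma locus Tcrg-V7 (chr13:19178024-19178492) was the sole segment with a peak in both, and its signal of 2.09 in replicate 1 was below the 2.38 of replicate 2. Its log2 ratio was -0.19. The site lay 124 bp upstream. A second site covered the 3′ end of the segment, at 1.06 and 0.942. Tcrg-V3 had a peak in replicate 1 alone (0.386) and Tcrg-V6 in replicate 2 alone (0.276), and 12 of 15 gamma segments had none.

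Segments with a peak in a single library numbered 13 in replicate 1 and 4 in replicate 2. Beside Trbv31, Tcrg-V3, Tcrg-V6 and Trbv2 above and Trac below, the strongest were Trav13-4-dv7 (0.383), Trav8d-1 (0.300), Trav4-4-dv10 (0.285) and Trav13d-3 (0.255), all in replicate 1. Trdv1 and Trav7-5, at 0.247 each, had theirs in replicate 2. All 6 values lay below their library's median.

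Few J segments had a peak, the same 6 of 70 (8.57%) in each library. Of other genes of at most 1000 bp, 10% and 7.65% had one, and 6.59% had one in both. The J count is therefore not read as a scarcity particular to J segments. Trbj2-3, Trbj2-4, Trbj2-5 and Trbj2-7 shared 1 site (chr6:41543461-41543740), which begins inside Trbj2-5 and ends before Trbj2-7, with signals of 0.536 and 0.356, so these 4 segments are 1 observation. None of the 7 segments of the first beta J cluster had a peak, against 4 of 6 of the second. The limit of 500 bp fell inside this cluster: Trbj2-3 lay 238 and 260 bp from the peak, and Trbj2-2 lay 504 and 526 bp away and was not counted. At the upper end of the counted range stood Trbv12-2 in replicate 1, at 391 bp, and Trbj2-7 in replicate 2, at 270 bp. In the alpha locus 2 of 53 J segments had a peak in both, Traj49 at 0.540 and 0.272 and Traj15 at 0.334 and 0.440. Of the D segments, Trbd2, the one before the second beta J cluster, had 0.379 and 0.444, and Trbd1, Trdd1 and Trdd2 had no peak. None of the D and J peaks was found in both of the shorter deposited lists, or was above the median signal in both libraries.

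No C segment had a peak in both libraries. Trac, the alpha constant gene (chr14:54220521-54224206), had an internal peak of 0.458 in replicate 1 alone, and Trdc, Trbc1, Trbc2, Tcrg-C1, Tcrg-C2, Tcrg-C3 and Tcrg-C4 had none. The nearest peak to the start of Trbc1 was 3743 bp away in replicate 1 and 3523 bp in replicate 2, and to that of Trbc2 2990 and 3190 bp.

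Peaks at V segments lay mostly just upstream of the start, where V promoters are. In replicate 1, 34 of 47 had their midpoint upstream of the start, at a median of 90.5 bp before it, and in replicate 2, 31 of 35 did, at a median of 107.5 bp. The 3′ end, where the recombination signal lies, was under 8 peaks in replicate 1 and 2 in replicate 2. Footprints, short protected stretches within accessible DNA, were deposited in 49 of 52 peaks at segments in replicate 1 and in 34 of 39 in replicate 2, beside 84.5% and 83.6% of all peaks.

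**Figure D3:**
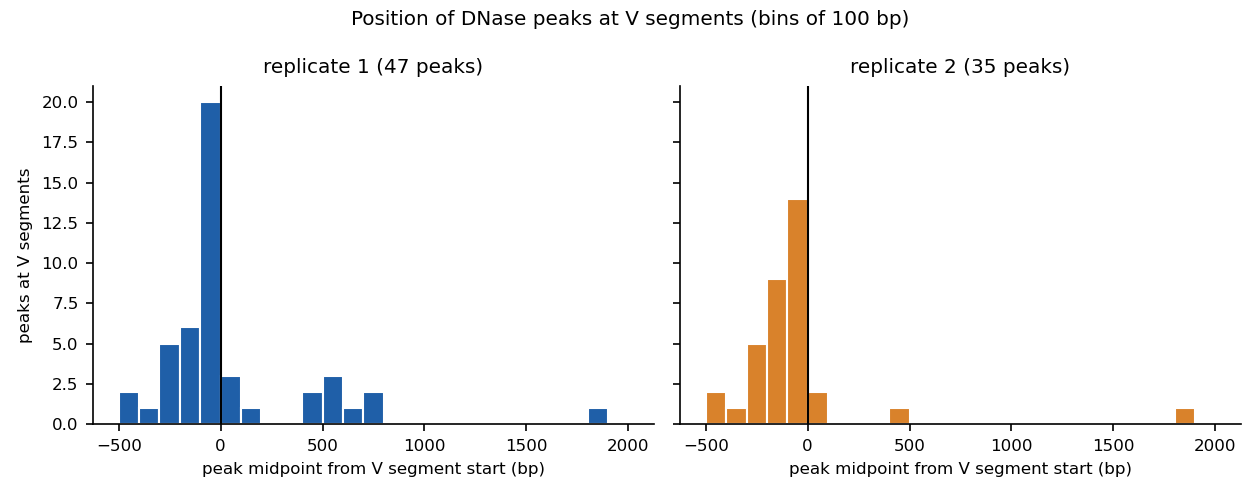
Distance of the peak midpoint from the annotated start of the V segment in bp (horizontal axis, negative is upstream) against the number of peaks in bins of 100 bp, for replicate 1 (47 peaks) and replicate 2 (35 peaks). Most peaks stand in the bins left of 0, and replicate 1 has a further small group near the 3′ ends.

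Recombination signals were present beside nearly all segments, mostly outside the peaks. Of 222 segment ends that take one, 127 had the exact heptamer CACAGTG and 217 had its first 3 bases CAC. Among the 3′ ends of 54711 other genes 0.0183% had the exact heptamer, and 1.35% had the first 3 bases. The 2 searches differed. Other genes were read only directly after the 3′ end, whereas segment ends took the best of several positions, with a preference for CAC. At 214 of the 222 segment ends the position chosen had no shift. The signal lay under a peak at 10 of the 222 ends in replicate 1 and 3 in replicate 2, and the 3 were among the 10: Trav13n-4, Tcrg-V7 and Traj15. Genome windows of 1001 bp, far longer than a signal, held a peak in 4.42% and 3.39% of cases. The share for stretches as short as a signal was not measured, so these counts are not read as a trait of the signals. Of the 8 V ends under a peak in replicate 1, 4 belonged to the Trav13 family, whose 11 members all carry the exact heptamer. Their peaks had 89.3% to 96.4% identical centres and windows of 0% to 34.8% unique 31-mers; the part of read placement among these copies was not tested. The signals under a peak in both libraries are shown in the reading direction of the signal with heptamer and nonamer in capitals. Trav13n-4 has all 7 heptamer letters and 8 of 9 nonamer letters, and Tcrg-V7 and Traj15 match the nonamer at 5 of 9 letters. They lie at chr14:53364107-53364145 on the plus strand, chr13:19178493-19178530 on the plus strand and chr14:54204394-54204421 on the minus strand.
Trav13n-4: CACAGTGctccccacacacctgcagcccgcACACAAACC
Tcrg-V7: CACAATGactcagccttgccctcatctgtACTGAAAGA
Traj15: CACAGTGaaacgaggccctGCAAATTCT

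Some sites upstream of V segments held the CTCF consensus, and so did other sites within the spans of the loci. The exact consensus was searched on both strands in the central 200 bp. It was in 5 of 34 sites at segments (14.7%) and 4 of 34 other sites within the spans (11.8%). The share was 8.22% over all sites of the genome found in both libraries. A match with up to 1 mismatch, a setting chosen after seeing the data, was in 17 of 34 sites at segments (50%). The other sites within the spans gave 13 of 34 (38.2%), and all sites of the genome 25.6%. All 17 were among the 30 sites at V segments, and of 22 V sites found in a single library 3 held such a match. Over the whole length of the sites at segments 18 had such a match. Of these, 15 lay upstream of the start, at a median of 148.5 bp (range 71.5 to 491.5), and all 15 read in the direction of the V segment and touched a footprint in both libraries. The other 3, in Trav13d-4, Trav13n-3 and Trav13n-4, lay inside the segment in the opposite direction, and none touched a footprint in both. In the other sites within the spans, 10 of 13 such matches touched a footprint in both libraries. How often any stretch of this length touches one was not measured. The 15 include copies such as the Trav10 trio, whose site centres are 94.3% to 98.6% identical, so they are not 15 independent sequences. The 5 sites with the exact consensus are shown with 10 bases either side and the consensus in capitals, to set the flanks of different families beside each other. They lie on the plus strand at chr14:53042196-53042227 (Trav8d-2), chr14:53345730-53345761 (Trav8n-2), chr14:53132559-53132590 (Trav6n-6), chr14:53538072-53538103 (Trav12-1) and chr14:53665829-53665860 (Trav3-3).
Trav8d-2: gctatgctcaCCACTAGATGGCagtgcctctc
Trav8n-2: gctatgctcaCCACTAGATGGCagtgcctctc
Trav6n-6: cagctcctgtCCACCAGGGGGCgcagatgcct
Trav12-1: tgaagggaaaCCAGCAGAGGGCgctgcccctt
Trav3-3: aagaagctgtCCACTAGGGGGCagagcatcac

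V promoters, taken as 250 bases before to 50 bases after the start, held the exact consensus in 17 of 144 cases (11.8%) and a match with up to 1 mismatch in 55 (38.2%). For 32851 RefSeq promoters of the same length the shares were 0.557% and 4.33%. All 17 with the exact consensus were of the Trav3, Trav6, Trav8 and Trav12 families. Copies of the repeat are among them and among the 55, so these are not independent promoters. A match was present in 15 of the 27 V promoters with a peak in both libraries (55.6%) and in 36 of the 101 with none (35.6%). Of the 17 promoters with the exact consensus, the 5 with a peak in both had windows with 39.5% to 55.0% unique 31-mers. The 12 with no peak had a median of 0%, and 10 of them lay under 5%. The part of uniqueness in the missing peaks was not tested.

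Uniqueness limits what can be read in these loci. A 31-mer was called unique when it occurred once in the reference, on either strand. V windows had a median of 40.1% unique 31-mers, and 105 of 144 were under 80%, among them all 34 d and all 28 n copies, whereas every TRB window was at least 83.9% unique and J windows had a median of 100%. A peak in both libraries was found at 9 of 39 V segments with at least 80% (23.1%), at 7 of 20 between 50% and 80% (35.0%) and at 11 of 85 under 50% (12.9%). The treatment of reads with several matching places is not stated, so an absent peak at a repeated V segment does not show closed chromatin, and a peak at one may hold reads from its copies.

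**Figure D4:**
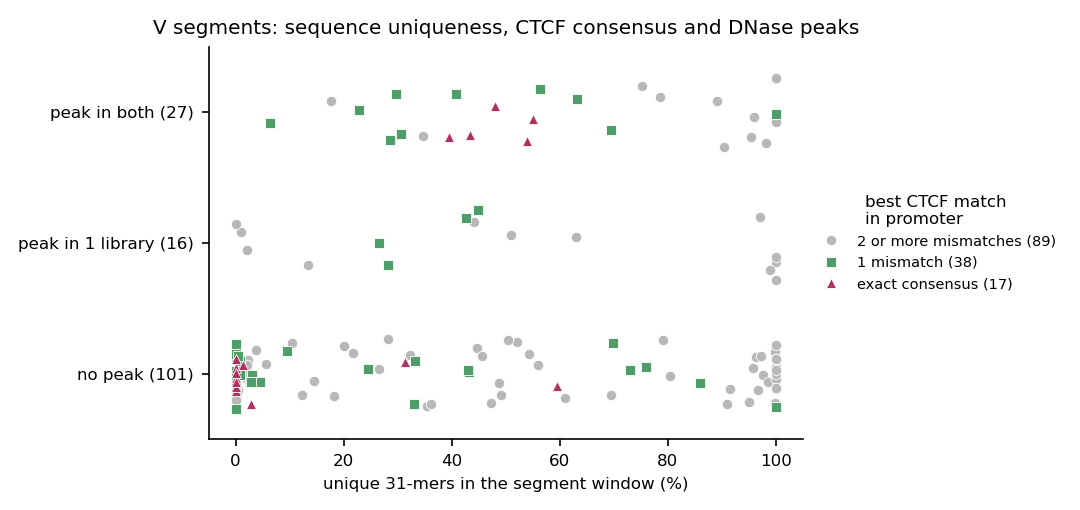
Share of unique 31-mers in the window of each of the 144 V segments in percent (horizontal axis) against the number of libraries with a peak (vertical classes, points spread within a class for visibility), with symbols for the best CTCF match in the promoter. Most triangles, the exact consensus, stand at the left end of the lowest class, and 5 stand between 39.5% and 55.0% in the class with a peak in both.

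Many sites in the loci lay away from the segments. Within the spans from the first to the last segment 65 sites were found in both libraries, 24.6 per Mb beside 26.9 per Mb of the genome, and 34 of them were at no segment. The density was 25.6 per Mb in TRA/TRD, 22.5 in TRB and 22.9 in TRG. With 50 kb either side, the 4 sites of highest mean signal lay outside the spans. They were assigned by position to the neighbouring genes Dad1, Abhd4 and Stard3nl. Those at or within the Dad1 gene had 24.2 and 8.79 (chr14:54253821-54254020, which is also within 500 bp of an Abhd4 start) and 11.7 and 5.23 (chr14:54239161-54239340). The Abhd4 site had 16.3 and 6.36, and the Stard3nl promoter 23.1 and 9.23. The site at chr14:54239161-54239340 holds the exact CTCF consensus, touching a footprint in both libraries. The Stard3nl site also holds it, touching no footprint in either.

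Of the sites at no segment, the next by mean signal flanked the alpha J and C region, where the enhancer of the alpha locus lies downstream of Trac. All 3 were below the sites of Trbv12-1 and Trbv12-2 in both libraries. One, 3215 bp beyond the end of Trac (chr14:54227421-54227740), had 4.02 and 1.62 with 8 and 5 footprints. Another, 3795 bp beyond it (chr14:54228001-54228400), had 4.77 and 2.54 with 10 footprints in each library. The last, between Trdv5 and Traj59 and 3013 bp before Traj59 (chr14:54152941-54153120), had 5.10 and 1.86. In that interval the promoter of germline alpha transcription is known to lie. These 3 sites each exceeded every alpha V, D, J or C segment in replicate 1. In replicate 2 Trav17, at 2.23, lay above the 1.62 and 1.86 of the first and the last.

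The sequences of the first and the last of these sites are shown because both hold letters of factors known from T cell enhancers. Of the first, 200 bases centred on these letters and not on the site are shown (chr14:54227464-54227663). They carry TGACGTCA (CRE), CTTTGAA (TCF/LEF) and the letters of GATA factors, AGATAA, each touching a footprint in both libraries. They also carry the reverse of TGTGGTT (RUNX), touching one in replicate 1. The last carries TGTGGTT on the plus strand and a CTCF match with 1 mismatch on the minus strand. The capitals mark these letters. In central 200-bp windows of all 73150 sites TGACGTCA was present in 0.961%, TGTGGTT in 5.47%, AGATAA in 8.39% and CTTTGAA in 3.22%, both strands searched. The central window of the site downstream of Trac holds each of these. Of the 34 sites at segments 0 held TGACGTCA, 2 held TGTGGTT, 4 held AGATAA and 2 held CTTTGAA.
Downstream of Trac: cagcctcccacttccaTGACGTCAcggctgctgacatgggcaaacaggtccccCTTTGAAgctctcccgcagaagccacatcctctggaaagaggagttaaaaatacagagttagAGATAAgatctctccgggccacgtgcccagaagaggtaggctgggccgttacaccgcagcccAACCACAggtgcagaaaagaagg
Upstream of Traj59: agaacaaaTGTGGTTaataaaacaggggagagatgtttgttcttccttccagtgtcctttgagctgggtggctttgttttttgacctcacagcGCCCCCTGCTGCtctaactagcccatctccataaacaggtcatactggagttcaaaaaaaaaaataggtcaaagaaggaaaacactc

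In TRB, 2 sites at no segment stood highest, 1 in each library. One lay 1756 bp beyond Trbv1 (chr6:40893641-40893840), with 2.71 and 1.46, and the other 1485 bp beyond Trbv14 (chr6:41137101-41137280), with 1.97 and 1.65. Both hold the exact CTCF consensus touching a footprint in both libraries, and the second was named after its values were seen. In the delta V region, sites between Trdv1 and Trdv2-1 (chr14:53936021-53936220) and before Trdv4 (chr14:54059881-54060060) had 2.63 and 2.07, and 2.35 and 2.11, and the second holds the exact CTCF consensus. The first had 15.3% unique 31-mers, one of which occurs 1558 times in the reference, whereas all 31-mers of the second were unique. The beta enhancer lies between Trbc2 and Trbv31, and the one site there found in both libraries had 0.885 and 0.703 (chr6:41554372-41554640), above the library medians. A further site in that interval had 0.409 in replicate 1 alone. The first was chosen after its values were seen. It holds TGTGGTT on each strand, touching a footprint in replicate 1 and not in replicate 2, and is shown with these letters, the reverse of AGATAA and the reverse of CAGATG (E-box) in capitals.
Trbc2 to Trbv31: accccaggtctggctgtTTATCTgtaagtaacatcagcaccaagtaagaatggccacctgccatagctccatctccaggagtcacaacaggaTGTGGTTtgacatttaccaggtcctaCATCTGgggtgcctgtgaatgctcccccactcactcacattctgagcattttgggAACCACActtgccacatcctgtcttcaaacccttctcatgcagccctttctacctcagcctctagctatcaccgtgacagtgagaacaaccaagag

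**Figure D5:**
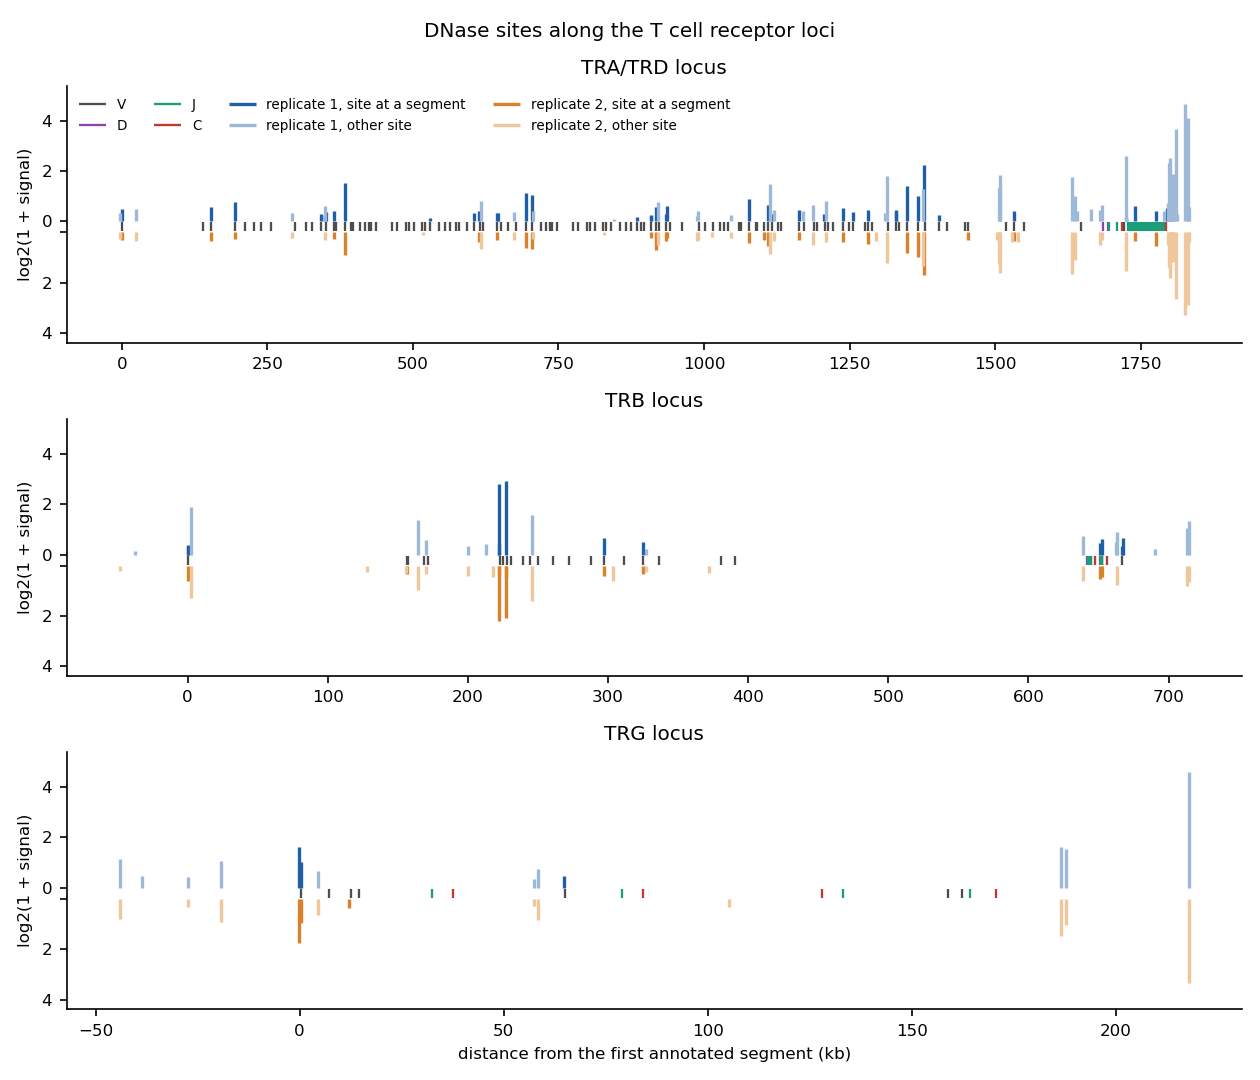
Sites along the 3 loci by distance from the first annotated segment in kb (horizontal axis) and log2(1 + signal) (vertical axis, replicate 1 upward and replicate 2 downward), with ticks for V, D, J and C segments between them and darker bars for sites at a segment. In TRA/TRD the tallest bars stand beyond the C end and in TRB the tallest stand at Trbv12-1 and Trbv12-2.

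Genes that assemble and serve the receptor were accessible to different degrees. Of 21 such genes 14 (66.7%) were open at the promoter in both libraries, beside 60.7% of 21938 protein-coding genes. The end-joining genes, used in all cells, were strong: Prkdc, the DNA-dependent kinase, had 23.2 and 8.74, and Nhej1, which bridges the ends for ligation, had 21.2 and 9.58. The receptor's signalling chains were weaker. Cd3g had 1.20 and 0.498, Cd3d had 0.506 and 0.398, Cd247 (the zeta chain) had 0.596 and 0.486, and Cd3e had 0.439 in replicate 1 alone. Lck, the kinase that starts receptor signalling, had 14.9 and 5.70. Rag1 and Rag2, the recombinase, had weak peaks of 0.264 and 0.285 in replicate 2 alone, and Dntt, which adds bases at the joints, Ptcra, the partner of the beta chain in precursors, and Cd4 had none in the promoter window.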

How the data were processed

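Peak signal, as deposited by the authors, is a depth-scaled density. The deposited false discovery rates (FDR, an adjusted p-value of the cut rate per stretch of bases) lay below 0.05. Of the deposited footprints, whose value is constant, the positions were used. The build mm10 and separate, unpooled alignments are per the file headers; aligner and callers are unstated in the sources used here.

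The longer of 2 deposited peak lists per library was used, with GENCODE release M21, an overlap of at least 1 bp and the strongest signal per segment. Overlapping peaks of both libraries formed a site. Recombination signals were sought at the 3′ end of V, both ends of D and the 5′ end of J segments, with a spacer of 12 or 23 bases (1 more or less allowed) and a shift of up to 3 bases. Sequences came from GRCm38, and promoters of other genes from RefSeq on that build. Scripts used Python 3.11.15, numpy 2.4.6 and pandas 2.3.3, and the overlap step was tested on simulated data.

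Members, lists and motifs were chosen with earlier results of these data known. With 1 group there is no contrast, and no test was made over segments. Named were all C and D segments, the 30 strongest segments in both libraries, the 10 strongest in a single library, the 10 strongest sites at no segment and the segments nearest to the 500 bp limit. Not every one is printed, and Trav13n-3, Trdv2-2 and segments given for a sequence feature are outside this rule. Alternatives were the shorter lists, stronger peaks, other windows, unique windows, merging distance and leaving out each library.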

Additional observations from a re-analysis of the deposited data

How the results depend on the processing

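Counts moved with the peaks and windows admitted. The shorter deposited lists gave 20 segments in replicate 2, 19 segments in both libraries (14 TRA/TRD, 4 TRB, 0 J and 0 D), 19 sites at segments in both and 35 sites within the spans. Peaks at or above the library's median signal gave 13 and 9 segments, 8 in both (all 8 V, 5 TRA/TRD, 2 TRB, 0 J and 0 D), 9 sites at segments and 23 within the spans. A window of 100 bp gave 3 J, 0 D and 5 TRB segments in both. The segment body alone gave 23 and 15 segments and 13 in both (11 V, 2 J, 0 D, 9 TRA/TRD, 3 TRB). The 115 segments with windows at least 80% unique gave 19 in each library and 16 in both, with 9 V and 5 TRA/TRD segments; this set is smaller by construction. The CTCF consensus with up to 1 mismatch was in 17 sites in place of 5. Without replicate 1 the count of segments was 38 and without replicate 2 it was 47, in place of 34 in both. The corresponding counts were 31 and 39 for V, 6 and 6 for J, 25 and 34 for TRA/TRD, 11 and 11 for TRB, and 2 and 2 for TRG. The causes of these shifts were not tested beyond the smaller sets of peaks and windows named.

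A window of 1000 bp, the start window alone, overlap of the peaks between libraries and, for sites, merging within 150 bp kept each count of segments by type and locus and of sites within 1.5 times, as did all settings for the 14 pathway genes. Of the 30 named segments, 19 had a value in both shorter lists, which repeat the same signals, and 11 had none; summing peaks moved 1 of 30. No paired analysis was possible because the series has 1 group and no contrast. Absolute depth is unknown, so an absent peak is a limit of detection, not a measured zero.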

Other observations

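Outside the rule for named sites, 3 sites between V segments were singled out after their values were seen, because they recur in the 3 copies of the alpha V repeat. Each lay upstream of a Trav16 segment: 1667 bp before Trav16d-dv11 (0.758 and 0.561), 1628 bp before Trav16n (0.705 and 0.406) and 1564 bp before Trav16 (2.45 and 1.35). Their centres were 95.0% to 95.7% identical, and each held TGTGGTT (RUNX) and CAGATG (E-box) on the minus strand, both touching a footprint in both libraries. None of the 3 Trav16 segments had a peak at its own start. Over the 34 sites in the spans found in both libraries and at no segment, 8 held TGTGGTT (23.5%) beside 2 of 34 at segments (5.88%) and 5.47% of all sites of the genome, and 10 held CAGATG (29.4%) beside 7 of 34 (20.6%) and 15.1%. The 3 Trav16 sites are among both the 8 and the 10, and copies of a repeat are not independent sites.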
